A study of Mus musculus with 16 samples.

Results

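Early-response feedback and dissociation genes were examined in sorted cells of the mouse olfactory mucosa. The 10 listed genes were Btg2, Zfp36, Ier2, Ier3, Ier5, Dusp1, Socs3, Klf2, Klf4 and Klf6, chosen by symbol, and 10 of 10 were measured, each by 1 probe, among 19505 named genes. All animals were S100a5-tauGFP mice, a reporter line whose green fluorescent protein (GFP) follows the S100a5 gene. S100a5 encodes a calcium-binding protein made by sensory neurons that have been active. The labels count 24 mice of both sexes aged 7 to 12 weeks, each kept for 40 hours alone in a chamber with clean air flowing at 3.1 L/min. From hour 26 the odor arm received indole/ionone, and the vehicle arm filtered air, in pulses of 10 seconds every 20 min. Whether the odorants were mixed, which ionone was used, the dose, and the number of reporter alleles could not be read from the labels used here. The mucosa of 3 mice at a time was pooled, dissociated and sorted, so that 4 odor pools and 4 vehicle pools each gave 1 GFP+ and 1 GFP- sample. These 16 samples form 4 groups of 4, named odor GFP+, odor GFP-, vehicle GFP+ and vehicle GFP-. All 4 groups were dissociated and sorted, and no tissue left undissociated was measured.

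Cells switch on early-response genes within minutes of a stimulus, without making new protein first. Some encode activating transcription factors such as Fos and Egr1, and others encode brakes that end the response. The genes studied here include brakes, such as Dusp1, Zfp36 and Socs3, and transcription factors, such as Klf2, Klf4 and Klf6. They also rise while a tissue is being taken apart with enzymes, which is why many of them are counted among dissociation genes in sorted-cell data. In the olfactory epithelium, odor-driven activity raises early genes and, more slowly, S100a5 in sensory neurons.

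Levels are given on the log2 scale of the arrays, on which 1 unit is a doubling. The 16 arrays correlated at 0.974 to 0.987 within groups and at 0.946 to 0.965 between fractions. Medians of 23 background probes that match no mouse gene lay between 5.63 and 6.05, and a gene level under them was not told from background. The mature sensory neuron markers (8 genes, such as Omp and Cnga2) averaged 17.48 to 17.54 in GFP+ samples. Their average was 17.08 to 17.43 in the GFP- samples, so these markers were high in both fractions. Markers of neutrophils, granulocytes of the blood, averaged 4.93 to 5.99 in the GFP+ fraction and 12.53 to 14.88 in the GFP- fraction. The GFP- sample of odor replicate 3 stood apart on the second principal component, at 90.4 against at most 27.6 elsewhere. Pools numbered 3 of both arms had low Y-linked genes (Uty, Kdm5d and Eif2s3y, mean level 3.12 to 3.86), against 9.20 to 10.29 in the other pools.

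Btg2, Zfp36 and Ier3 were far lower in GFP+ than in GFP- cells. Btg2 is an antiproliferative gene that slows the cell cycle and recruits the deadenylase that shortens mRNA tails. In odor pools 1 to 4 its log2 level was 7.66, 6.74, 6.70 and 7.14 in GFP+ cells and 12.92, 12.51, 12.03 and 12.65 in GFP- cells. In vehicle pools 1 to 4 it was 7.55, 6.19, 7.02 and 7.40 in GFP+ cells and 13.55, 12.68, 12.30 and 12.47 in GFP- cells. Every GFP+ sample lay below every GFP- sample. The within-pool difference, GFP+ minus GFP-, was -5.47 ± 0.21 in odor pools (SE, n = 4 pools, limma adjusted p = 1.34e-08) and -5.71 ± 0.21 in vehicle pools (adjusted p = 1.02e-08). The SE of within-pool differences, here and below, comes from 1 variance per gene shared by both arms. The SD of the Btg2 differences was 0.23 in odor pools and 0.66 in vehicle pools. Over both arms Btg2 was 48.1-fold lower.

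Zfp36, or tristetraprolin, binds AU-rich elements in cytokine mRNAs and speeds their decay. In odor pools its log2 level was 9.23, 7.48, 7.22 and 8.05 in GFP+ cells and 13.61, 12.76, 12.80 and 12.89 in GFP- cells. In vehicle pools it was 8.66, 7.49, 7.21 and 8.25 in GFP+ cells and 13.26, 12.33, 12.68 and 12.81 in GFP- cells. The fractions did not overlap, and the pools numbered 1 were highest in both fractions of both arms. The difference was -5.02 ± 0.21 in odor pools (SE, n = 4, limma adjusted p = 2.05e-08) and -4.86 ± 0.21 in vehicle pools (adjusted p = 2.55e-08).

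Ier3 is a stress-induced gene that sustains ERK signalling and modulates NF-kB and apoptosis. Its log2 level in odor pools was 7.25, 5.55, 5.20 and 6.28 in GFP+ cells and 11.23, 9.57, 8.87 and 10.77 in GFP- cells. In vehicle pools it was 6.89, 6.20, 5.51 and 6.27 in GFP+ cells and 11.97, 10.63, 9.72 and 10.74 in GFP- cells. GFP+ levels exceeded the background median in 5 of 8 samples, so the GFP+ level is only bounded in the other 3. Ier3 had the widest spread between pools of the 10 genes in GFP- cells, 3.10 log2 units, and pool 1 was again highest and pool 3 lowest in each arm. The difference was -4.04 ± 0.17 in odor pools (SE, n = 4, limma adjusted p = 2.39e-08) and -4.54 ± 0.17 in vehicle pools (adjusted p = 1.06e-08).

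**Figure D1:**
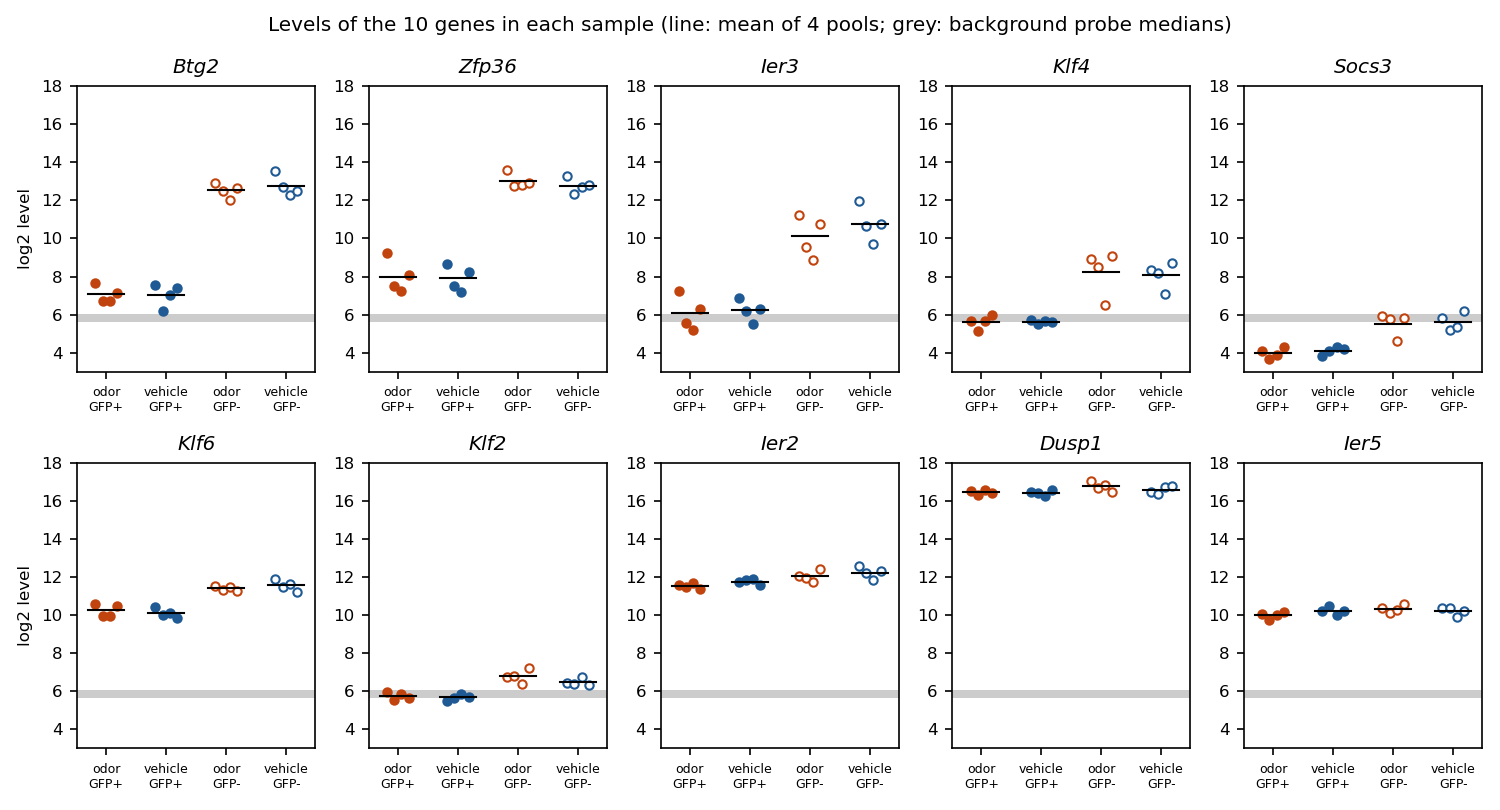
Log2 level (y axis) of each of the 10 genes in the 16 samples, by arm and fraction (x axis). Points are pools, filled for GFP+ and open for GFP-, lines are means of 4 pools, and the grey band spans the background probe medians of 5.63 to 6.05. Btg2, Zfp36 and Ier3 fall by several units in GFP+ cells, Dusp1 stays between 16.25 and 17.02 throughout, and Socs3 lies in or under the band in all samples but 1.

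The promoters of these 3 genes and of Dusp1, whose level was close in both fractions, are shown so that the letters they share and do not share can be seen. The sequences are the 250 bases before the RefSeq start of each gene in GRCm38.p6, 5′ to 3′ on the strand of the gene. Capitals mark matches on either strand to a cyclic AMP response element (CRE, TGACGTCA, or its shorter core TGACG in Btg2 and Dusp1), an EGR motif (GCGNGGGCG), a STAT motif (TTCNNNGAA), a CArG box of serum response factor or an NF-kB motif.
Btg2, chr1:134079156-134079405, minus strand: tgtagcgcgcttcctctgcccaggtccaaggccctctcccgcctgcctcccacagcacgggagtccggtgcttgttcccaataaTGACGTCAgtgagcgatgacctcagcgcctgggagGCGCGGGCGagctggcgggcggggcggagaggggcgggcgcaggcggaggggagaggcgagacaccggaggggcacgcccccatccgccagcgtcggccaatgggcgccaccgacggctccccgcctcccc
Zfp36, chr7:28379229-28379478, minus strand: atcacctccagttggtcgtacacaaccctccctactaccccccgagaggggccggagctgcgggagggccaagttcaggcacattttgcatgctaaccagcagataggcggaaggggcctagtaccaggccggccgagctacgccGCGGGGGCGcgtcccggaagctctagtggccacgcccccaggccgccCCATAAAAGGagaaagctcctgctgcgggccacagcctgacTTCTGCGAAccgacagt
Ier3, chr17:35821463-35821712, plus strand: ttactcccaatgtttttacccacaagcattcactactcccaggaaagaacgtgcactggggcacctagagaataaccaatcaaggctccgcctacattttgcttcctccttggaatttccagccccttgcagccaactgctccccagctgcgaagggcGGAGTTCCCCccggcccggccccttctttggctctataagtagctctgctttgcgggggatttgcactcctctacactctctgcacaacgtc
Dusp1, chr17:26508473-26508722, minus strand: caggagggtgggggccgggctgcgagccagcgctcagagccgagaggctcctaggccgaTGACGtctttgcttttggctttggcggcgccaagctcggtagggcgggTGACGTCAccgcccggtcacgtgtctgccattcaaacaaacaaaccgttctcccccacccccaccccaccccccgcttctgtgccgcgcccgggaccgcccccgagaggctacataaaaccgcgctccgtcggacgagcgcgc

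The full CRE stood in Btg2 and Dusp1, 2 of the 9 members with a promoter entry (Ier2 had none), and in 1.55% of 32851 promoter windows of this length. Its first base lay 166 bases before the start in Btg2 and 143 in Dusp1, and Dusp1 had a further core at 191. These 2 genes had within-pool differences of -5.59 and -0.22 over both arms. Whether the element bears on either difference was not tested. The core, which the full CRE contains, stood in 4 members and 17.8% of windows. The EGR motif stood in Btg2, Zfp36, Klf2, Klf4 and Socs3, 5 of 9, against 4.7% of windows. These 5 windows were 64.8% to 74% G and C, the motif is itself mostly G and C, and the windows compared were not matched for it. The CArG box stood in Zfp36 (1.47% of windows), the NF-kB motif in Ier3 (3.9%) and the STAT motif in Zfp36 and Socs3 (7.02%). The Socs3 window, chr11:117969367-117969616, lies inside the annotated span of the gene, chr11:117966079-117970336, so its matches are not upstream of that whole span. The AP-1 motif TGANTCA stood in 0 members and 6.75% of windows. A match is a description of letters, and binding was not measured.

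Klf4, Klf6 and Klf2 were also lower in GFP+ cells, by smaller amounts, and Socs3 was called lower at levels at or under background. Klf4, a zinc-finger factor of epithelial barrier cells and monocytes, had GFP- levels of 8.90, 8.49, 6.50 and 9.08 in odor pools and 8.36, 8.20, 7.06 and 8.69 in vehicle pools. Its GFP+ levels of 5.17 to 5.97 were under the background median of the same array in 8 of 8 samples. The difference was -2.63 ± 0.38 in odor pools (SE, n = 4, limma adjusted p = 3.73e-04) and -2.45 ± 0.38 in vehicle pools (adjusted p = 6.31e-04). With values under background raised to its median, Klf4 was at least 5.10-fold lower in odor pools and at least 4.73-fold lower in vehicle pools. Odor pool 3 differed by -0.86 and the other odor pools by -3.32 to -3.11, and without that pool the odor value was -3.22 (adjusted p = 1.75e-05).

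Klf6, a zinc-finger factor induced by injury, was well above background in every sample. In odor pools its log2 level was 10.56, 9.96, 9.97 and 10.45 in GFP+ cells and 11.50, 11.32, 11.49 and 11.26 in GFP- cells. In vehicle pools it was 10.39, 9.99, 10.12 and 9.83 in GFP+ cells and 11.87, 11.47, 11.63 and 11.23 in GFP- cells. The fractions did not overlap. The difference was -1.16 ± 0.15 in odor pools (SE, n = 4, limma adjusted p = 1.23e-04) and -1.47 ± 0.15 in vehicle pools (adjusted p = 1.81e-05).

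Klf2, the flow- and quiescence-linked factor of endothelial cells and resting lymphocytes, lay near background. Its GFP- levels were 6.77, 6.77, 6.35 and 7.19 in odor pools and 6.43, 6.40, 6.73 and 6.31 in vehicle pools. In GFP+ cells it lay at 5.48 to 5.96, above the background median in 3 of 8 samples. The difference was -1.02 ± 0.17 in odor pools (SE, n = 4, limma adjusted p = 0.00129) and -0.79 ± 0.17 in vehicle pools (adjusted p = 0.00713).

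Socs3, an inhibitor of cytokine receptors that signal through Jak kinases and Stat3, was not separable from background. In GFP- cells it was 5.91, 5.78, 4.61 and 5.80 in odor pools and 5.84, 5.19, 5.34 and 6.18 in vehicle pools, above the background median in 4 of 8 samples. GFP+ levels of 3.68 to 4.29 exceeded it in 0 of 8. The difference of -1.54 ± 0.24 in odor pools (SE, n = 4, limma adjusted p = 6.02e-04) and -1.53 ± 0.24 in vehicle pools (adjusted p = 6.29e-04) rests on levels at or under background. With values under the background median raised to it, the differences were 0.0271 (adjusted p = 0.844) and -0.09 (adjusted p = 0.908).

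Ier2, Ier5 and Dusp1 lay within about 1 log2 unit in both fractions of each pool. Dusp1, the nuclear phosphatase that switches off the MAP kinases p38, JNK and ERK, was at 16.52, 16.28, 16.54 and 16.41 in GFP+ cells of odor pools and at 17.02, 16.67, 16.83 and 16.47 in their GFP- cells. In vehicle pools it was at 16.46, 16.42, 16.25 and 16.56 in GFP+ cells and at 16.43, 16.35, 16.69 and 16.74 in GFP- cells. The fractions overlapped, and within pools the difference ran from -0.51 to 0.07. It was -0.31 ± 0.14 in odor pools (SE, n = 4, limma adjusted p = 0.151) and -0.13 ± 0.14 in vehicle pools (adjusted p = 0.566). The 95% confidence interval over both arms ran from -0.44 to -0.00450, so a measured difference of the size seen for Btg2 lies outside it. The mean level of Dusp1 was above that of 99.4% of all genes in GFP+ cells and 99.6% in GFP- cells. Whether the arrays compress differences at such high levels was not tested.

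Ier2, a nuclear protein gene induced with Fos, was at 11.55, 11.47, 11.69 and 11.35 in GFP+ and 12.07, 11.94, 11.74 and 12.39 in GFP- cells of odor pools. In vehicle pools it was at 11.72, 11.81, 11.91 and 11.56 in GFP+ and 12.56, 12.18, 11.85 and 12.30 in GFP- cells. The fractions overlapped, and in 7 of 8 pools the GFP+ level was the lower. The difference did not pass in odor pools (-0.52 ± 0.19, SE, n = 4, limma adjusted p = 0.0800) or vehicle pools (-0.47 ± 0.19, adjusted p = 0.109). Over both arms it did (-0.50 ± 0.13, n = 8, adjusted p = 0.0149), a call lost with each array centred on its median (-0.31, adjusted p = 0.0817).

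Ier5, a heat-shock-linked regulator of the HSF1 factor, was at 10.04, 9.74, 9.99 and 10.17 in GFP+ and 10.35, 10.09, 10.25 and 10.58 in GFP- cells of odor pools. In vehicle pools it was at 10.18, 10.49, 10.00 and 10.22 in GFP+ and 10.36, 10.38, 9.88 and 10.23 in GFP- cells. These levels overlapped. The difference was -0.33 ± 0.12 in odor pools (SE, n = 4, limma adjusted p = 0.0810) and 0.01 ± 0.12 in vehicle pools (adjusted p = 0.959).

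**Figure D2:**
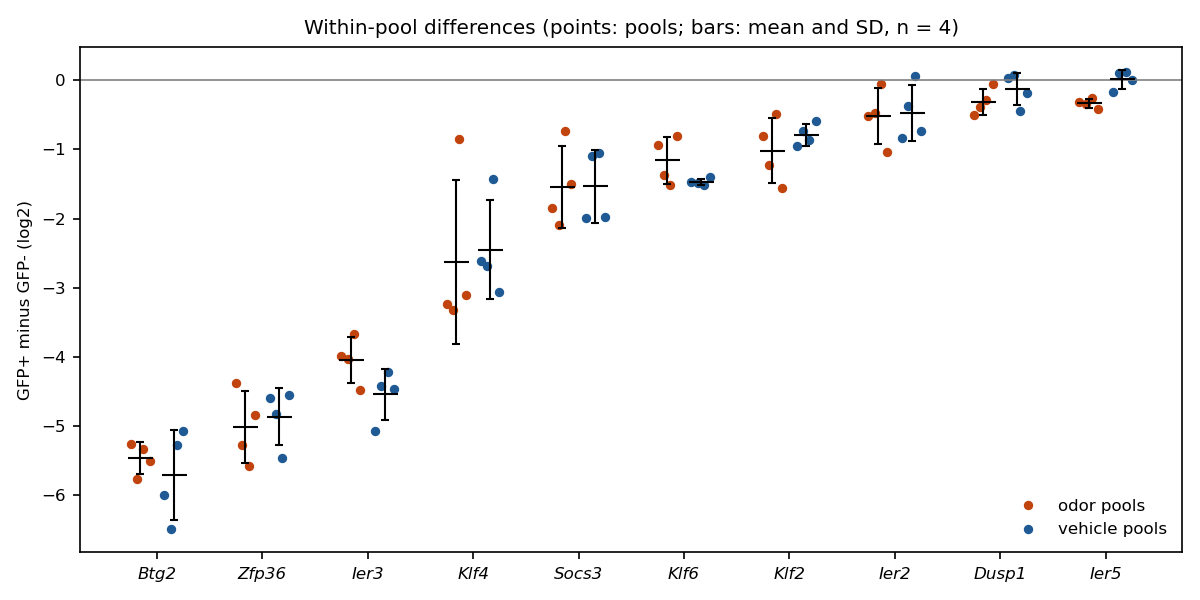
GFP+ minus GFP- log2 difference (y axis) of the 10 genes (x axis), ordered by the mean over both arms. Points are pools, red for odor and blue for vehicle, and bars are the mean and SD of 4 pools. Btg2 lies between -6.50 and -5.07 in the 8 pools, and Dusp1 between -0.51 and 0.07. Ier5 lies between -0.42 and -0.26 in odor pools and between -0.18 and 0.12 in vehicle pools.

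Counted together, 7 of the 10 genes were lower in GFP+ cells of odor pools and 7 in vehicle pools, with 0 higher in either. The 7 include Socs3, whose call was lost in both arms once values under background were raised to it. Of all genes, 10.6% were called lower and 7.96% higher in odor pools, and 10.8% lower and 8.86% higher in vehicle pools. Over both arms 8 of 10 were lower, against 13.9% of all genes, and the median difference was -1.43 against 0.12 for all genes. Levels of the fractions did not overlap, with GFP+ lower, for 7 of 10, against 7.76% of all genes. By the exact sign-flip test over 8 pools, these 7, Socs3 among them, had p = 0.00781, the smallest that test can give. The test gave an exact p = 0.0234 for Ier2, 0.0469 for Dusp1 and 0.0703 for Ier5. The 10 genes were chosen with earlier results of these data known, so the counts describe them. Bulk samples cannot tell fewer cells of a type from less RNA per cell.

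Markers of several other cell types moved with the fraction as well. Over both arms 10 of 10 neutrophil markers, 8 of 8 of macrophages and monocytes, 7 of 7 of lymphocytes and 7 of 7 of microvillar cells were lower in GFP+ cells. Macrophage and monocyte markers averaged 5.96 to 7.40 in GFP+ cells and 8.33 to 9.07 in GFP- cells, with Cx3cr1 under background in both GFP+ groups and Cd14 in the vehicle one. Microvillar cell markers, such as Trpm5, averaged 4.91 to 5.38 and 7.68 to 8.72, with Chat under background in GFP- cells and 5 of 7, Trpm5 among them, under it in GFP+ cells. Lymphocyte markers averaged 4.41 to 4.80 and 6.89 to 7.87, with 6 of 7 under background in GFP+ cells. In GFP+ cells 7 of 10 neutrophil markers lay under background. Sustentacular, immature neuron and erythroid markers were lower in 5 of 7, 4 of 6 and 3 of 3, and mature neuron markers in 0 of 8. Bowman gland markers were lower in 3 of 5, globose basal in 4 of 5 and endothelial in 2 of 7. Fibroblast, ensheathing glia and horizontal basal markers were lower in 1 of 5 each. Pericyte and smooth muscle markers were lower in 2 of 6 and higher in 1, and respiratory ciliated markers higher in 2 of 4. Of all genes, 13.9% were called lower and 18.3% higher. Endothelial markers lay under background in 7 of 7 in all 4 groups, at 3.97 to 4.36. The part of these cell types in the results for the 10 genes was not tested.

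Within a fraction, the levels of some of these genes and of cell type markers followed each other from pool to pool. Correlations of each of the 10 genes with the mean level of each of 16 marker lists were computed over the 8 pools of a fraction, 320 in all. An exact permutation p fell under 0.05 for 14 of 160 in GFP+ cells and 24 of 160 in GFP- cells, and after Benjamini-Hochberg adjustment over the 320 it did so for 0 and 0. In GFP- cells Btg2 correlated with neutrophil markers at r = 0.918 (n = 8, exact permutation p = 5.21e-04, adjusted p = 0.0833) and rho = 0.952 (exact p = 0.00114). Without the 2 pools farthest from the marker median r was 0.921. Ier3 gave r = 0.907 with the same markers (n = 8, exact permutation p = 0.00260, adjusted p = 0.126) and rho = 0.857 (exact p = 0.0107), and r = 0.893 without 2 pools. Other lists gave positive relations of like size in GFP- cells. Ier3 had r = 0.905 with macrophage and monocyte markers (n = 8, exact permutation p = 0.00233, adjusted p = 0.126). With pericyte and smooth muscle markers, Btg2 had r = 0.903 (exact permutation p = 0.00417, adjusted p = 0.126) and Ier3 r = 0.877 (exact permutation p = 0.00489, adjusted p = 0.130). Most of the latter markers lay under background. Relations of the opposite sign were as strong. Ier3 in GFP- cells correlated with lymphocyte markers at r = -0.915 (n = 8, exact permutation p = 8.93e-04, adjusted p = 0.0952) and rho = -0.952 (exact p = 0.00114), with r = -0.930 without 2 pools. Btg2 did so at r = -0.889 (n = 8, exact permutation p = 0.00603, adjusted p = 0.137) and rho = -0.714 (exact p = 0.0576), with r = -0.835 without 2 pools. In GFP+ cells Zfp36 correlated with macrophage and monocyte markers at r = 0.933 (n = 8, exact permutation p = 4.96e-04, adjusted p = 0.0833) and rho = 0.881 (exact p = 0.00724), with r = 0.866 without 2 pools. With immature neuron markers it gave r = -0.879 there (n = 8, exact permutation p = 0.00273, adjusted p = 0.126) and rho = -0.881 (exact p = 0.00724), and r = -0.508 without 2 pools. Klf4 in GFP- cells followed microvillar markers at r = 0.838 (n = 8, exact permutation p = 0.00541, adjusted p = 0.133) and rho = 0.714 (exact p = 0.0576), but r fell to 0.518 without 2 pools. The points of each correlation share array and pool, and all these relations failed the adjustment.

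**Figure D3:**
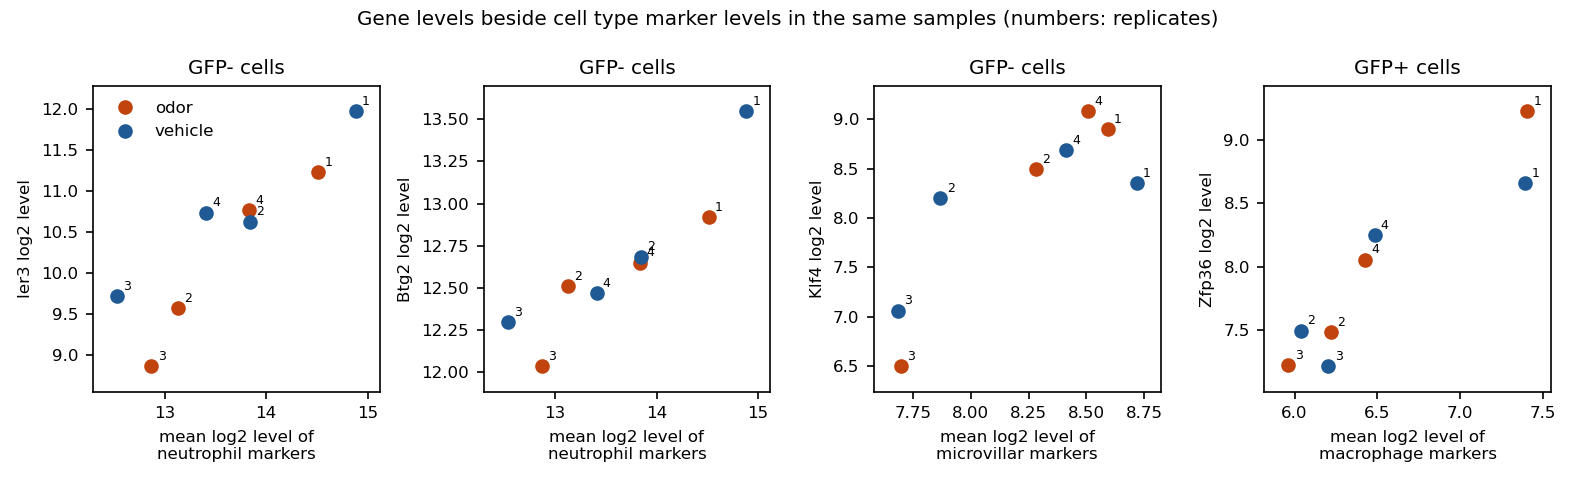
Log2 level of a gene (y axis) against the mean log2 level of a cell type's marker genes (x axis) in the same samples. Points are 8 pools, red for odor and blue for vehicle, numbered by replicate. Ier3 and Btg2 in GFP- cells rise with neutrophil markers and Zfp36 in GFP+ cells with macrophage markers, while the 2 pools numbered 3 lie lowest for Klf4.

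Among the 10 genes, 45 pairs were correlated in each fraction, 90 in all. Ier3 and Zfp36 went together in GFP+ cells (r = 0.945, n = 8, exact permutation p = 9.92e-05, adjusted p = 0.00893 over the 90, rho = 0.952, exact p = 0.00114, and r = 0.827 without 2 pools). That was the one pair past the adjustment. For both genes the GFP+ sample of pool 1 was highest and that of pool 3 lowest in each arm. The permutation treats the 8 pools as independent, so its p may be too small if pools of the same number deviate together. Ier3 exceeded the background median in only 5 of these 8 samples. In GFP- cells Btg2 and Ier3 had r = 0.914 (n = 8, exact permutation p = 0.00129, adjusted p = 0.0580), rho = 0.833 (exact p = 0.0154) and r = 0.782 without 2 pools. Klf4 and Socs3 had r = 0.854 there (n = 8, exact permutation p = 0.00955, adjusted p = 0.215), rho = 0.762 (exact p = 0.0368) and r = 0.792 without 2 pools. Both were lowest in the GFP- sample of odor pool 3, at 6.50 and 4.61.

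The design also allowed odor to be compared with vehicle. For the 10 genes, no call was made between odor and vehicle. In GFP+ cells the differences, odor minus vehicle, ran from -0.24 to 0.15, with 5 above 0 and 5 below, and limma called 0 of 10 (0 of 10 also at an unadjusted p under 0.05, smallest adjusted p = 0.927). In GFP- cells they ran from -0.65 to 0.30, again 0 of 10 by either count. Among all 19505 genes 0% were called in GFP+ cells, where 1070 had an unadjusted p under 0.05. In GFP- cells 0.00513% were called, 1 gene, and 697 had an unadjusted p under 0.05.

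Intervals show which changes these pools would still allow. In GFP+ cells the 95% confidence interval of the odor effect was -0.27 to 0.29 for Dusp1, -0.53 to 0.06 for Ier2, -0.57 to 0.09 for Ier5 and -0.26 to 0.56 for Klf6. It was wider for Btg2 (-0.65 to 0.69), Zfp36 (-0.86 to 1.04) and Ier3 (-1.07 to 0.77). For Ier2 the GFP+ samples of odor pools, at 11.35 to 11.69, mostly lay under those of vehicle pools, at 11.56 to 11.91 (difference -0.24 ± 0.13, SE, exact permutation p = 0.0571). In GFP- cells the widest interval was that of Ier3, -1.86 to 0.56.

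Pools of the same number in both arms deviated together to some degree, so odor was also set against vehicle within numbers, a comparison added after the values were seen. In GFP+ cells Ier2 was lower with odor in 4 of 4 pairs, by -0.17, -0.34, -0.21 and -0.21, and Ier5 in 4 of 4, by -0.15, -0.75, -0.01 and -0.06. Of all genes, 6.68% were lower and 7.54% higher in all 4 pairs of GFP+ cells, against 2 and 0 of the 10. The exact sign-flip test gave p = 0.125 for both, the smallest that 4 pairs allow. With the number as a block, limma gave -0.24 ± 0.13 for Ier2 (SE, adjusted p = 0.813) and -0.24 ± 0.16 for Ier5 (adjusted p = 0.852). In GFP- cells Zfp36 was higher with odor in 4 of 4 pairs, by 0.35, 0.43, 0.13 and 0.08, and 0 of the 10 were lower in all pairs (6.47% of all genes were higher and 6.31% lower). The block gave the GFP- difference of Ier3 an unadjusted p = 0.00980 (-0.65 ± 0.20, SE, n = 4 pairs, limma adjusted p = 0.932), with the pairs at -0.73, -1.05, -0.85 and 0.03.

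The within-pool differences did not pass between arms either (0 of 10 by limma, 0% of all genes, 0 of 10 at an unadjusted p under 0.05). Of all 19505 genes, 654 had an unadjusted p under 0.05 in this comparison. Ier5 was the one member whose within-pool differences did not overlap between arms. Its GFP+ minus GFP- difference was -0.31, -0.35, -0.26 and -0.42 in odor pools and -0.18, 0.10, 0.12 and 0.00 in vehicle pools. The arms differed by -0.35 ± 0.17 (SE, 4 against 4, limma adjusted p = 1.00, exact permutation p = 0.0286, the smallest that 4 against 4 can give). Of all genes, 0.892% had odor pools all below vehicle pools in this measure and 1.13% all above. Ier3 differed by 0.50 ± 0.25 (95% confidence interval -0.04 to 1.04), with overlapping pools.

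**Figure D4:**
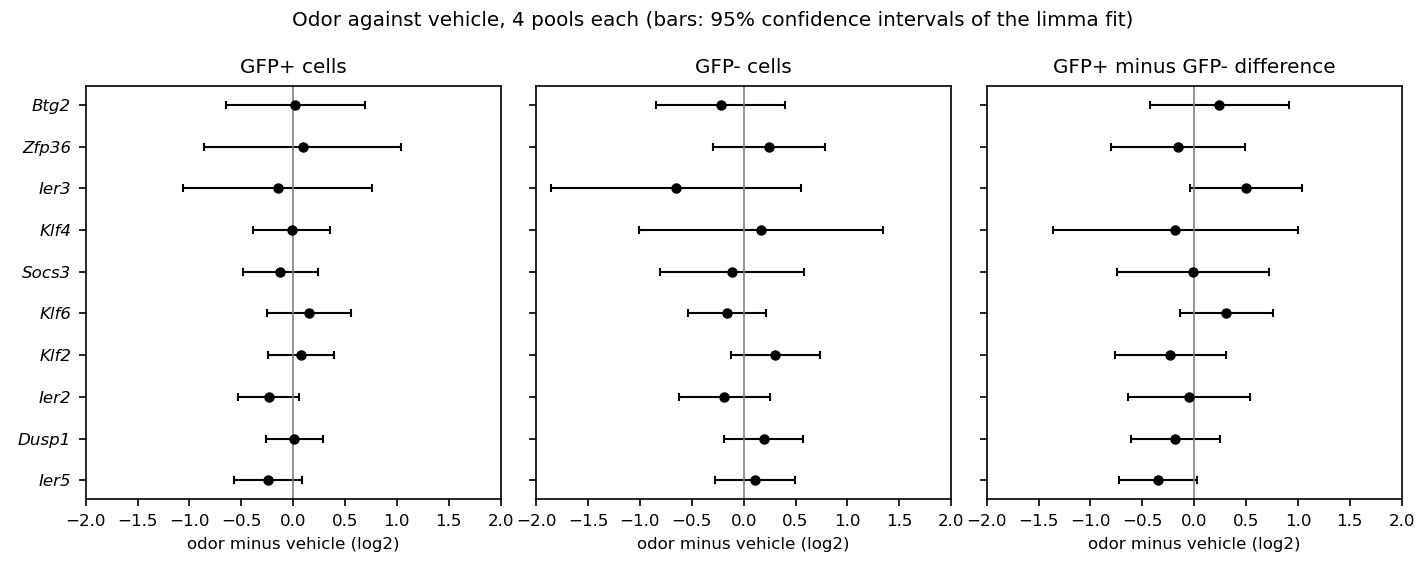
Difference between odor and vehicle (x axis, log2) for the 10 genes (y axis) in GFP+ cells, GFP- cells and the GFP+ minus GFP- difference. Points are limma estimates from 4 pools against 4 and bars are 95% confidence intervals. Every interval drawn includes 0.

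Genes of the same families and pathways, taken from lists of related genes, placed these values in context. Counts refer to GFP+ minus GFP- over both arms, in which 13.9% of all genes were called lower and 18.3% higher. Most of the activating early factors were lower too. Of 19 AP-1, Egr and Nr4a genes and their companions 14 were lower, with a median of -2.21, among them Egr2 at -6.15 ± 0.25, Egr1 at -5.59 ± 0.10 and Fosb at -5.07 ± 0.17 (SE, n = 8, limma). Maff and Npas4 were called higher, by 0.36 and 0.35.

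The family of Zfp36 was lower in 2 of 3, Zfp36l2 at -5.33 ± 0.15 and Zfp36l1 at -3.45 ± 0.18, and Zfp36l3, at 3.22 in GFP+ and 2.92 in GFP- cells and so under background, was called higher by 0.30 ± 0.10. Of 9 listed AU-rich mRNAs that Zfp36 binds, 6 were lower, among them Ptgs2 at -5.21 ± 0.41, Il1b at -5.11 ± 0.16 and Cxcl2 at -3.86 ± 0.35, and 1 higher. Of 4 further Btg and Tob genes 1 was lower, Btg1 at -1.58 ± 0.10. Neither of the 2 other Ier genes passed.

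Phosphatases related to Dusp1 were lower in 5 of 10, with Dusp6, which acts on ERK, averaging 6.30 in GFP+ and 8.29 in GFP- cells, Dusp2 at -1.45 ± 0.14 and Dusp4 at -1.40 ± 0.12. Dusp14 was higher by 0.32. Of the upstream MAP kinases and serum response factors with a named probe, 1 of 9 was lower (Mapk14, or p38 alpha, at -0.46 ± 0.10) and 2 higher (Map2k2 at 0.41 ± 0.13 and Mapk8, or JNK1, at 0.31 ± 0.10), and Srf differed by -0.07 ± 0.11. The other Klf genes were lower in 3 of 14, Klf5 at -2.76 ± 0.18, Klf1 at -0.76 ± 0.15 and Klf3 at -0.38 ± 0.13. Targets of Klf2 were lower in 2 of 4, S1pr1 at -0.71 ± 0.16 and Thbd at -0.59 ± 0.13, with mean levels of 3.87 to 4.57, under background.

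The Socs family went both ways, with Socs2 at -0.65 ± 0.14 and Cish at -0.43 ± 0.10 among 7 called lower and Socs5 at 0.70 ± 0.12, Socs4 at 0.56 ± 0.16 and Socs7 at 0.41 ± 0.12 called higher. Of 10 cytokine receptors and their Jak and Stat3 partners 3 were lower, Csf3r, the receptor for the neutrophil growth factor, at -5.39 ± 0.32, Il6ra at -2.92 ± 0.16 and Osmr at -0.46 ± 0.13, and Il6st was called higher by 0.31. NF-kB genes and their feedback inhibitors were lower in 5 of 8, with Tnfaip3 at -3.56 ± 0.16, Bcl3 at -2.32 ± 0.20 and Nfkbiz at -1.76 ± 0.14.

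Heat shock genes of the dissociation response were lower in 4 of 10. Hspa1b differed by -0.99 ± 0.23, Hspa1a by -0.98 ± 0.27 and Dnajb1 by -0.50 ± 0.15, and the list median was -0.06. Of 18 other dissociation genes 9 were lower, led by Rgs2 at -5.60 ± 0.17, Cebpd at -2.62 ± 0.22 and Gadd45b at -2.37 ± 0.27, and 1 was higher, Ppp1r15a at 0.50 ± 0.12. Several of these genes lay under background in GFP+ cells, among them Rgs2 (4.01), Ptgs2 (3.57), Cxcl2 (4.15), Csf3r (4.78) and Il6ra (4.99), so their differences depend on where the background lies. Bcl3 averaged 3.67 in GFP+ and 5.99 in GFP- cells, under or within the background medians of 5.63 to 6.05. Dusp4, at 4.75 and 6.15, was under them in GFP+ cells and barely above them in GFP- cells. Npas4, Arc, Klf1, Dusp2, Dusp7, Osmr, Cish, Nfkb2 and Hspb1 had mean levels under 5.63 in both fractions. So did Csf2, the AU-rich mRNA called higher. The counts above include these calls, which rest on levels under background. The activity-raised sensory neuron genes went the other way in 5 of 5, with Lrrc3b at 1.96 ± 0.14, Pcdh10 at 1.65 ± 0.13 and S100a5, whose reporter set the gate, at 1.29 ± 0.12.

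The genes whose profile over the 16 arrays was most like the mean standardized profile of the 10 were Bin2 (r = 0.991), Ccl9 (0.987), Fosb (0.985), Plbd1 (0.984) and Cat (0.983). These r values mostly reflect the split between fractions, since Bin2, for example, averaged 5.23 in GFP+ and 9.38 in GFP- cells. When each group mean was removed first, the closest were Elp5 (r = 0.934), Stmnd1 (0.932), Zranb2 (0.931), Tada3 (0.927) and Tsc22d1 (0.925), of which Tsc22d1 averaged 17.23 in both fractions. Both sets of r describe 16 arrays that share pools, and carry no test.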

How the data were processed

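RNA of each sorted sample was measured on 1 Clariom S array, from 50 to 100 ng of total RNA per the labels. The deposited values were made by the authors with Affymetrix Expression Console, per the submitters' processing notes, with no version named. How background, scaling and probe sets were handled could not be read from the labels used here. They were taken as log2 from their range of 1.67 to 19.35, since the deposited table does not state the base. The platform annotation gave 1 symbol for 19572 of 28846 probes, none for 9274 and several for 0, and 19572 matched RefSeq (GRCm38.p6) by gene identifier. The probe with the highest mean stood for each of 55 genes with several.

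Pools were read from the titles, which number 2 vehicle pools as 3; the one whose pool code matches that of odor pool 4 is called 4 here. Both fractions of a pool come from the same 3 mice, so within-pool differences were tested, with limma 3.58.1 in R 4.3.3 and 1 variance per gene shared by both arms. Odor was compared with vehicle in each fraction alone. Two-sided p-values were adjusted with the Benjamini-Hochberg method over 19505 genes, with a threshold of 0.05; they measure the spread between pools. The 2 fractions of a pool deviated together (correlations across genes of 0.109 to 0.249). Deviations of odor and vehicle pools of the same number correlated at 0.114 to 0.242 in GFP+ cells and 0.0664 to 0.332 in GFP- cells, so odor was compared with vehicle also with the number as a block. The labels do not say what a number marks. The fits were also run on simulated arrays, and no result here rests on them. Those arrays held no shared deviation of pools with the same number and no background floor, unlike the real ones. The 10 genes and all lists were chosen with earlier results of these data known. The rule named all 10 members, the 3 genes with the largest difference past the threshold in each other list, and the 5 genes most like the members; further genes were named after their values were seen. The number of arrays limits precision.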

Additional observations from a re-analysis of the deposited data

Results flagged for a closer look

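In groups of 4 samples, a value was singled out where its gap to its nearest neighbour made up most of the group's range (Dixon's test at the 95% level). Chance alone gives such values in a small share of groups (the test's error rate of 0.05), and 3 of 60 groups of the 10 genes had such a value. Zfp36 in the GFP- sample of odor replicate 1 was at 13.61, against 12.76 to 12.89 in the other odor pools. The GFP+ minus GFP- difference of Klf4 in odor replicate 3 was -0.86, against -3.32 to -3.11. Socs3 in the GFP- sample of odor replicate 3 was at 4.61, against 5.78 to 5.91.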

How the results depend on the processing

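Of 160 recomputed values of the 10 genes per comparison, 152 kept their direction and call in odor pools, 157 in vehicle pools and 158 over both arms, and 160 in each comparison of odor with vehicle. Socs3 changed most: with values under background raised to it, its difference was 0.0271 in odor pools (limma adjusted p = 0.844), -0.09 in vehicle pools (0.908) and -0.03 over both arms (0.745). Ier2 lost its call over both arms with median centring (-0.31, adjusted p = 0.0817). It gained one in odor pools with quantile normalization (-0.58, 0.0483) or without odor replicate 3 (-0.68, 0.0476), and in vehicle pools without vehicle replicate 3 (-0.65, 0.0471). It also passed in both arms without the pools numbered 3 (0.0268 and 0.0279), an alternative chosen after seeing the data. Ier5 passed in odor pools with quantile normalization (-0.39, 0.0409), with only genes above background on 4 arrays (0.0442) and with values raised to background (0.0223).

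Median centring moved the median of all genes over both arms from 0.12 to 0.31 and the genes called higher from 1552 to 6458 in odor pools, from 1728 to 3823 in vehicle pools and from 3563 to 9911 over both arms. The share of calls that were higher went from 42.9% to 78.5%, from 45.1% to 67.6% and from 56.8% to 81.6%. Leaving out 1 pool at a time gave 972 (without odor replicate 1) to 1653 genes called higher in odor pools and 1010 (without vehicle replicate 1) to 2008 in vehicle pools, with 1014 without vehicle replicate 2. The 1 gene lower with odor in GFP- cells was 0 to 1 gene when single pools were left out and 0 without the pools numbered 3. Raising values to background called 1 gene higher in the difference between arms.

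With the replicate number as a block, 0 of the 10 genes were called in each comparison of odor with vehicle, so the block changed no call. Whether the numbers mark shared handling is not stated. Pools that share a number had correlated deviations, of 0.114 to 0.242 in GFP+ cells, 0.0664 to 0.332 in GFP- cells and 0.0974 to 0.305 in within-pool differences, and the pools numbered 3 share low Y-linked genes. Without the pool as a block (no replicate block), 8 genes were lower in odor pools, Ier2 being added (adjusted p = 0.0392), 7 in vehicle pools and 8 over both arms. Background, with probe medians of 5.63 to 6.05, limits what Klf2, Klf4 and Socs3 can show.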
